A study of Mus with 7 samples.

Results

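The DNA replication and S-phase genes of fetal liver-derived macrophages (FLMs) are described here as a group of 49 genes, taken by symbol from the 31053 genes listed in the deposited count files. The list runs from the proteins that mark and load replication origins, through the helicase, polymerases, clamp and ligase of the fork, to the enzymes that supply nucleotides, the factors that copy chromatin, and cyclins that lead into S phase. All 49 were found, and all had a mean level of at least 2 CPM over the libraries, a limit that 9807 genes passed. CPM is a gene's count of unique molecular identifiers (UMIs, 1 per captured RNA molecule) in a library, scaled to 1000000 UMIs. Each gene had at least 100 UMIs in every library except DHA.LPS.4, where 46 did.

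FLMs are self-renewing macrophages of genotype wt, grown from the livers of mouse fetuses in GM-CSF, which all 7 conditions shared at 30 ng/mL. Each condition gave 1 single-cell RNA library. Con was collected from growth medium with 10% FBS. The other 6 libraries came from cells moved to 0.25% FBS for 24 h, with the omega-3 fatty acid docosahexaenoic acid (DHA, 25 µM, carried on 8.3 µM BSA) or with the BSA carrier (Veh), and collected at once (Veh.LPS.0 and DHA.LPS.0) or after bacterial lipopolysaccharide (LPS, 20 ng/mL) for 1 h or 4 h (Veh.LPS.1, DHA.LPS.1, Veh.LPS.4 and DHA.LPS.4). Per the labels, the medium with DHA or BSA was taken off when LPS was given, so LPS, the exchange of medium and the longer time in low serum cannot be told apart, and serum likewise cannot be told apart from the added BSA and the 24 h between Con and Veh.LPS.0. The cells are a dividing culture kept over passages and not macrophages of adult tissue.

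A cell copies its genome once per division. In G1 the origin recognition complex, with Cdc6 and Cdt1, loads rings of Mcm2 to Mcm7 onto DNA. At the start of S phase, kinases, among them cyclin E with its partner Cdk2, and the factors Mcm10, Cdc45 and GINS turn these rings into moving helicases, behind which polymerases held by the sliding clamp PCNA copy both strands. Many of these genes are targets of the E2F transcription factors, so their transcripts are used as marks of cells that are about to enter or are within S phase, and tissue macrophages that renew themselves use the same machinery.

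Barcodes with over 20000 UMIs, at least 2000 genes and under 20% mitochondrial UMIs were kept as cells, which left 692 to 3073 cells per library of 2443 to 5722 barcodes, with a median depth of 29369 to 56239 UMIs. The filter took out unequal shares of the libraries. Of the barcodes, 29.0% had at least 20% mitochondrial UMIs in Con, 35.8% to 54.7% in Veh and 74.4% to 80.0% in DHA. Any pair of libraries shared at most 4 kept barcodes. The 9 macrophage markers Spi1, Itgam, Fcer1g, Tyrobp, Cd68, Cd14, Csf1r, Adgre1 and Lyz2 summed to 5817 to 7089 CPM. Of the 6 erythroid markers, Hbb-bs had no UMI and the sum was 0.256 to 0.771 CPM, and the 5 hepatocyte markers summed to 5.68 to 7.83 CPM with Alb and Ttr at 0. The 6 neutrophil markers summed to 0.0571 to 7.53 CPM, highest in DHA.LPS.4, with S100a9 and Ly6g at 0. Mast cell, lymphoid, and stromal and endothelial markers each summed to at most 0.544 CPM, with Cpa3, Mcpt4, Tpsb2, Cd3e, Ms4a1, Nkg7, Ncr1 and Col1a2 at 0. The part of these markers in the results was not tested.

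With 1 library per condition there was no replicate and no test. Levels are CPM of the UMIs summed over the cells of a library, and differences are ratios of CPM, mostly on the log2 scale. The intervals in parentheses are exact 95% intervals, or approximate ones for a difference between log2 ratios. They cover counting error only, and those of levels and ratios leave out how much the cells of a library vary. A gene was counted as higher or lower when its ratio was above 1.5 or below the inverse of 1.5. The summed level of the 49 genes was 3449 CPM in Con. At 0, 1 and 4 h of LPS it was 2491, 2532 and 984 CPM with Veh, and 2005, 1843 and 1166 CPM with DHA. Of the 49 genes, 45 had their highest level in Con and 42 their lowest in Veh.LPS.4. For 45, both libraries at 4 h of LPS lay below the other 5. These ranks were not taken over all genes, so none is read as particular to the 49. The single levels ran from 2.88 CPM for Pole2 in Veh.LPS.4 to 239 CPM for Dut in Con.

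**Figure D1:**
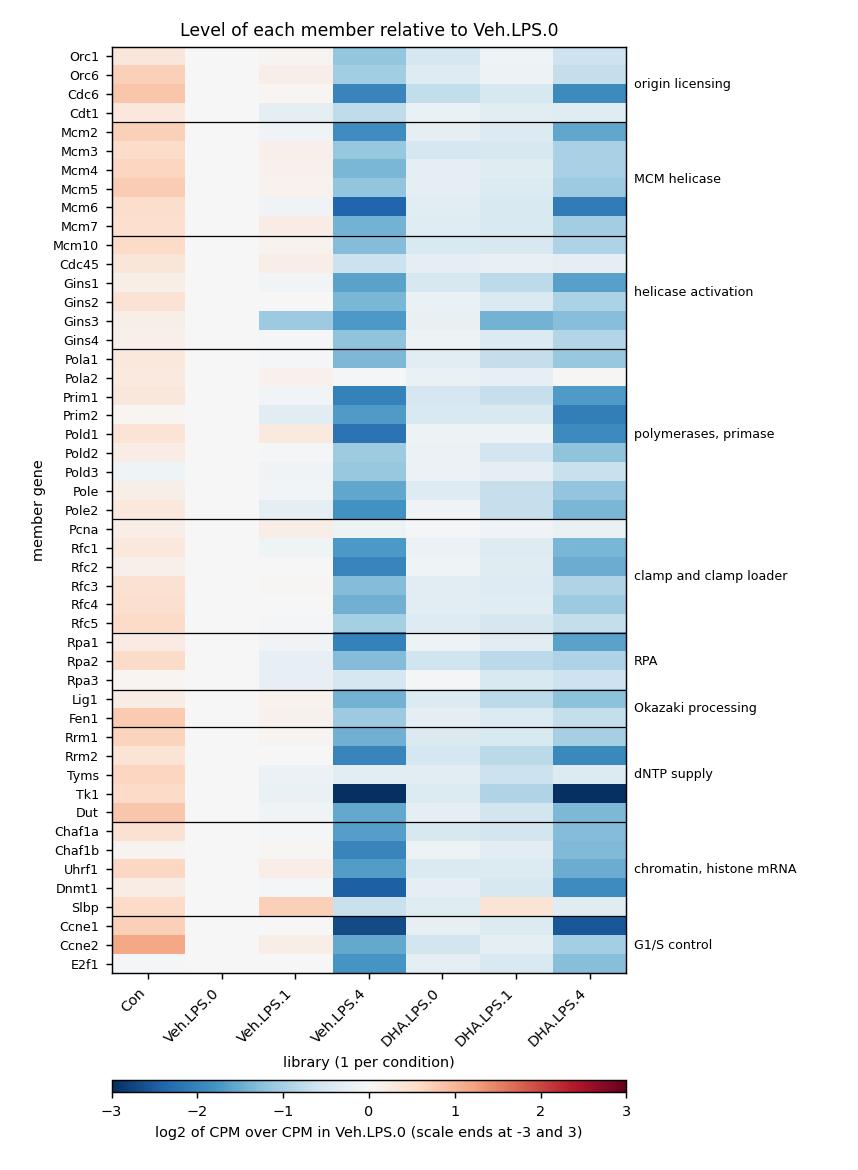
Log2 ratio of the CPM of each of the 49 genes (rows, grouped by role) in each of the 7 libraries (columns) to its CPM in Veh.LPS.0, with blue for lower and red for higher levels. The columns at 4 h of LPS are the darkest blue for most genes, with Tk1 the darkest at -3.56 in Veh.LPS.4, while Pola2, Pcna and Tyms stay pale.

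Serum reduction was addressed by Veh.LPS.0 over Con. The replication genes were lower after a day in low serum: 47 of 49 had a lower level, beside 5213 of all 9807 genes. Of the 49, 12 were lower by more than 1.5-fold and none higher, beside 7.22% of all genes lower and 12.4% higher. Their median log2 ratio was -0.40, where that of all genes was -0.03, and their summed level was 0.722 times that in Con (0.719 to 0.726). The lowest ratios were those of Ccne2, Dut and Cdc6, followed by Fen1, the flap nuclease of Okazaki fragments, at -0.79. Ccne2, one of the 2 cyclin E genes, was at 35.4 CPM in Con, 15.9, 18.3 and 5.55 CPM in Veh and 10.9, 12.98 and 7.89 CPM in DHA at 0, 1 and 4 h, in that order here and in the sentences that follow. Con stood above all other libraries, and the log2 ratio of Veh.LPS.0 to Con was -1.15 (-1.24 to -1.07). Dut, the dUTPase that keeps uracil out of DNA and the gene with the most UMIs of the 49 in Con, was at 239 CPM in Con, 134, 125 and 46.2 CPM in Veh and 111, 91.6 and 52.8 CPM in DHA, with a log2 ratio of -0.83 (-0.86 to -0.81). Cdc6 (ENSMUSG00000017499, chr11:98907709-98923942 in the mm10 build), the loader of the MCM rings, was at 29.03 CPM in Con, 16.3, 17.1 and 4.13 CPM in Veh and 9.82, 11.7 and 4.35 CPM in DHA, with a log2 ratio of -0.83 (-0.92 to -0.75). At the other end stood Pold3, a subunit of DNA polymerase delta, at 0.12, E2f1, the transcription factor, at 0.06 (-0.01 to 0.13), and Rpa3, the small subunit of the single-strand binding protein RPA, at -0.05 (-0.12 to 0.01). The intervals of E2f1 and Rpa3 hold 0. By role, the medians ran from -0.24 for RPA and -0.27 for the helicase activators to -0.65 for nucleotide supply and -0.71 for the G1/S genes.

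After 1 h of LPS the group was nearly at its level without LPS. In Veh.LPS.1 over Veh.LPS.0, 23 genes were higher and 26 lower, with a median log2 ratio of -0.02 where that of all genes was -0.11, and the summed level was 1.016 times that without LPS (1.011 to 1.022). Scaled by TMM, 34 were above and 15 below 0, as 11 changed sign, so no direction is read for the group. By CPM, 1 gene was higher and 1 lower by more than 1.5-fold, which is 2.04% each way beside 4.85% of all genes higher and 6.65% lower. The higher one was Slbp (ENSMUSG00000004642, chr5:33640055-33652574), which binds the stem-loop at the end of histone mRNAs, at 86.7 CPM in Con, 58.3, 96.2 and 36.6 CPM in Veh and 45.1, 77.4 and 45.5 CPM in DHA. Its level at 1 h was above that at 0 and 4 h in both Veh and DHA, with a log2 ratio of 0.72 (0.68 to 0.77) in Veh and 0.78 (0.69 to 0.87) in DHA. The lower one was Gins3, a subunit of the GINS complex of the helicase, at 13.4 CPM in Con, 11.8, 5.53 and 3.58 CPM in Veh and 10.2, 4.46 and 4.85 CPM in DHA. Its log2 ratio was -1.10 (-1.25 to -0.95) in Veh and -1.20 (-1.49 to -0.91) in DHA, so both genes went past 1.5-fold in the same direction in a second pair of libraries with no library in common. In that pair, DHA.LPS.1 over DHA.LPS.0, 5.5% of all genes were higher and 7% lower by more than 1.5-fold.

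After 4 h of LPS the replication genes were lower as a group. Comparing Veh.LPS.4 with Veh.LPS.0, every one of the 49 had a lower level, beside 7158 of all 9807 genes. Of the 49, 45 were lower by more than 1.5-fold, beside 41.5% of all genes lower and 9.89% higher by that much. Their median log2 ratio was -1.43 and that of all genes -0.42, and the summed level was 0.395 times that without LPS (0.391 to 0.399). Since 4072 of the 9807 genes were lower by more than 1.5-fold, the ratio depends on the scaling. With TMM factors, which set the bulk of genes near 0, the median was -1.003 for the 49 genes and 0.01 for all genes, 41 of the 49 were lower by more than 1.5-fold and none higher, and of all genes 24.0% were lower and 20.4% higher. A scaling moves all genes by the same amount, so the distance between both medians, -1.01, is the same with either by construction. With DHA, in DHA.LPS.4 over DHA.LPS.0, 31 of the 49 genes were lower by more than 1.5-fold beside 35.3% of all genes, 0 were higher beside 10.2%, and the median log2 ratio was -0.80 beside -0.31. With TMM factors, 21 were lower there and the median was -0.50, and 18.7% of all genes were then higher and 22.8% lower.

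At 4 h in Veh, all genes of origin licensing and the helicase were lower by more than 1.5-fold, beside 41.5% of all genes. With DHA, 1 of the 4 licensing, 5 of the 6 MCM and 4 of the 6 activator genes were, beside 35.3% of all genes. In DHA.LPS.4 over DHA.LPS.0, TMM factors changed the sign of 5 of the 49 genes, namely Orc1, Cdt1, Cdc45, Pcna and Tyms. No direction is read for these genes with DHA. In licensing, the 4 genes had a median log2 ratio of -1.10 in Veh. Orc6, a subunit of the origin recognition complex and the one of the 4 with the most UMIs, was at 81.8 CPM in Con, 49.6, 55.9 and 24.2 CPM in Veh and 38.3, 44.8 and 30.2 CPM in DHA, which was -1.04 (-1.12 to -0.95) at 4 h in Veh. Cdc6 was the lowest of them at -1.98 (-2.18 to -1.79). The 6 MCM genes, the ring of the helicase, ran from -1.15 for Mcm3 to -2.37 for Mcm6 although their products form a single ring. Mcm3, with the most UMIs of the 6, was at 160.5 CPM in Con, 109.8, 122 and 49.6 CPM in Veh and 77.03, 78.6 and 56.2 CPM in DHA, and Mcm6 at 109.6 CPM in Con, 75.8, 70.3 and 14.6 CPM in Veh and 61.1, 54.9 and 17.7 CPM in DHA. The libraries at 4 h lay lowest for both genes, and the interval of Mcm6 does not meet that of Mcm3. Only levels of the same gene are compared here, since in this 3′ assay the UMIs of a transcript also depend on how well it is primed. Of the 6 helicase activators, all were lower by more than 1.5-fold, and Gins4, with the most UMIs, was at 55.2 CPM in Con, 49.6, 48.7 and 21.3 CPM in Veh and 44.7, 36.99 and 26.8 CPM in DHA.

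Of the 9 polymerase and primase genes, 8 were lower by more than 1.5-fold at 4 h in Veh, beside 41.5% of all genes. Subunits of the same enzyme lay apart. Pola2 (ENSMUSG00000024833, chr19:5940543-5964238), the B subunit of DNA polymerase alpha, had nearly the same level at 0 and 4 h in Veh. It was at 24.8 CPM in Con, 20.3, 21.98 and 19.8 CPM in Veh and 17.6, 17.1 and 20.7 CPM in DHA. Its log2 ratio at 4 h was -0.03 (-0.14 to 0.08) in Veh and 0.23 (0.06 to 0.41) in DHA. Pola1, the catalytic subunit of the same enzyme, was at 44.1 CPM in Con, 35.4, 33.7 and 13.9 CPM in Veh and 27.8, 21.6 and 16.1 CPM in DHA and its log2 ratio at 4 h was -1.35 (-1.46 to -1.24) in Veh, with an interval that does not meet that of Pola2. The primase subunits Prim1 and Prim2, which sit in the same complex, were at -2.02 and -1.70. Pold2, an accessory subunit of polymerase delta and the one of the 9 with the most UMIs on average, was at 42.2 CPM in Con, 35.9, 35.1 and 17.2 CPM in Veh and 31.6, 24.3 and 15.6 CPM in DHA.

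The clamp and its loader also lay apart. Pcna (ENSMUSG00000027342, chr2:132249286-132253180), the sliding clamp, was at 125 CPM in Con, 109, 125 and 98.2 CPM in Veh and 105, 101 and 95.6 CPM in DHA, and its log2 ratio at 4 h was -0.15 (-0.20 to -0.11) in Veh and -0.14 (-0.21 to -0.06) in DHA. All 7 libraries lay within a narrow range, and it held the most UMIs of the 49 genes in both libraries at 4 h. The 5 subunits of replication factor C, which opens the clamp and closes it around DNA, were all lower, from -0.999 for Rfc5 to -1.98 for Rfc2. With Veh, 89.3% of cells had a Pcna UMI without LPS and 93.1% at 4 h, and after thinning to 20000 UMIs per cell in 76.9% and 73.3%. For Tk1 these shares were 71.1% and 17.8%, and 56.8% and 7.45% at equal depth. No other cell type was present in which the share from free RNA could be measured.

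Among the RPA and Okazaki fragment genes, Rpa1 was at -2.04, Rpa2 at -1.30 and Rpa3 at -0.50 in Veh at 4 h. These 3 genes encode 1 trimer that coats single-stranded DNA. Lig1, the ligase that joins the fragments of the lagging strand, was at 69.9 CPM in Con, 60.1, 64.2 and 22.5 CPM in Veh and 45.05, 35.05 and 25.6 CPM in DHA, and Fen1, the nuclease that trims their flaps, had a log2 ratio of -1.08.

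The nucleotide supply genes held both the lowest ratio and one of the highest. Tk1 (ENSMUSG00000025574, chr11:117815519-117826087), thymidine kinase of the salvage pathway, was at 86.9 CPM in Con, 58.9, 50.9 and 5.0 CPM in Veh and 44.1, 31.6 and 6.12 CPM in DHA. Both libraries at 4 h lay below the other 5, at log2 ratios of -3.56 (-3.73 to -3.39) in Veh and -2.85 (-3.11 to -2.59) in DHA, the lowest of the 49 genes in both. Tyms (ENSMUSG00000025747, chr5:30038546-30073645), thymidylate synthase, which makes the same nucleotide by the other route, was at 109.9 CPM in Con, 69.9, 61.7 and 55.3 CPM in Veh and 55.8, 44.9 and 53.03 CPM in DHA, with log2 ratios of -0.34 (-0.40 to -0.28) and -0.07 (-0.18 to 0.03). With TMM factors the sign of 3 genes changed at 4 h in Veh, namely Pola2 to 0.40, Pcna to 0.28 and Tyms to 0.09, so for these genes no direction is read. Rrm1 and Rrm2, the subunits of ribonucleotide reductase, were at -1.45 and -1.99, and Dut at -1.54.

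In chromatin copying and G1/S control, all 8 genes were lower by more than 1.5-fold at 4 h in Veh, beside 41.5% of all genes. Dnmt1 (ENSMUSG00000004099, chr9:20907206-20959888), which copies DNA methylation onto the new strand, was at 143 CPM in Con, 122, 119 and 22.3 CPM in Veh and 99.4, 88.4 and 32.9 CPM in DHA, a log2 ratio of -2.46 (-2.54 to -2.38) in Veh. Uhrf1, which brings Dnmt1 to half-methylated sites, was at -1.67, and Chaf1a and Chaf1b, subunits of the histone chaperone CAF-1, were at -1.65 and -1.97. Ccne1 (ENSMUSG00000002068, chr7:38097984-38107490), the other cyclin E gene, was at 61.3 CPM in Con, 37.5, 37.01 and 5.85 CPM in Veh and 31.5, 28.2 and 6.396 CPM in DHA, a log2 ratio of -2.68 (-2.84 to -2.52) in Veh and the second lowest after Tk1.

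**Figure D2:**
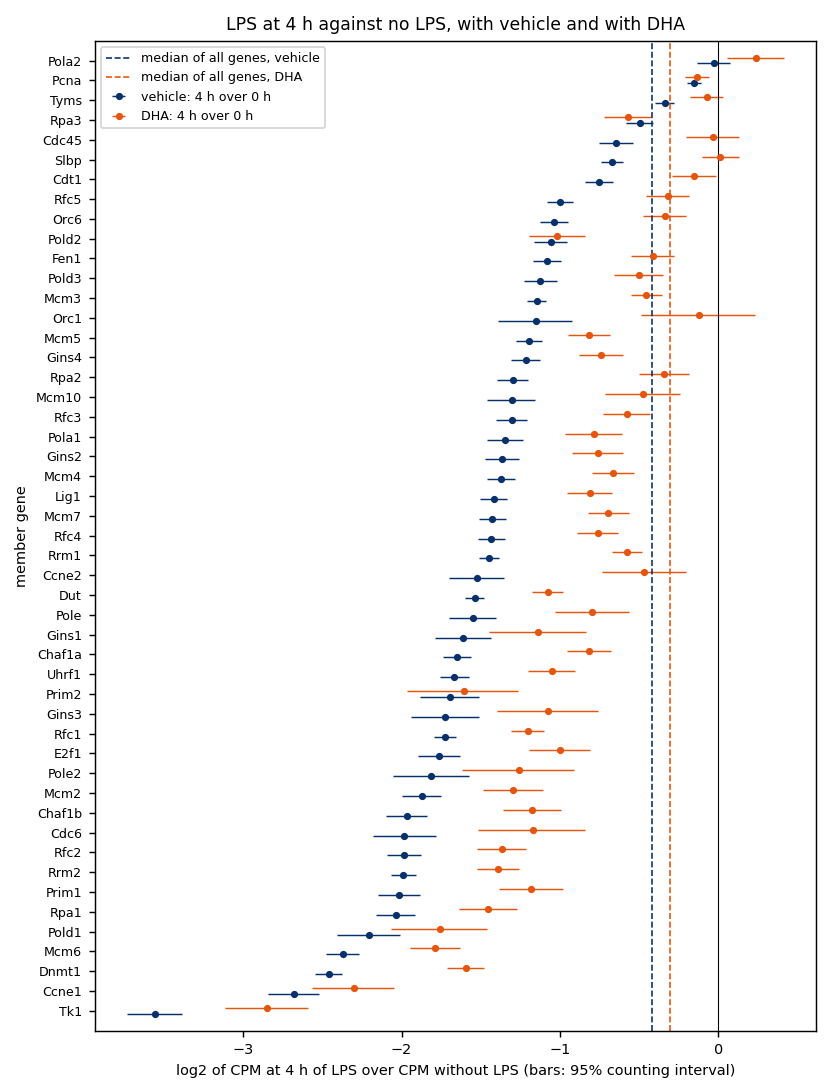
Log2 ratio of CPM at 4 h of LPS to CPM without LPS for each of the 49 genes, in Veh (dark blue) and in DHA (orange), with bars for 95% counting intervals and dashed lines for the medians of all 9807 genes. In Veh, values run from -3.56 for Tk1 to -0.03 for Pola2, and the DHA point lies to the right of the Veh point for every gene except Rpa3.

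Whether the response to LPS had the same size with DHA was asked by the difference between both log2 ratios. At 4 h the summed level was 0.395 times that without LPS in Veh and 0.582 times in DHA (0.573 to 0.590), a difference of 0.56 (0.53 to 0.58) on the log2 scale. For single genes the difference, DHA minus Veh, had a median of 0.62, and its interval lay above 0 for 45 of the 49 genes and below 0 for none. It was greatest for Ccne2 at 1.05 (0.74 to 1.36), Orc1 at 1.03 (0.61 to 1.44) and Rpa2 at 0.96 (0.78 to 1.14), and least for Rpa3 at -0.08 (-0.24 to 0.09), Pcna at 0.02 (-0.07 to 0.11) and Pold2 at 0.04 (-0.16 to 0.24). At 1 h the median difference was -0.14, with 1 interval above 0 and 26 below. The median of all genes at 4 h was also closer to 0 with DHA, at -0.31 beside -0.42 in Veh. The difference was not taken for each gene, so these counts by interval are not read as particular to the 49. A scaling moves all differences by the same amount, and the intervals were taken by CPM only. With TMM factors the 49 genes had medians of -0.50 with DHA and -1.003 with Veh, in place of -0.80 and -1.43. By construction the difference is DHA over Veh at that hour minus DHA over Veh without LPS. For the summed level at 4 h these were 0.245 and -0.313, so it also holds the lower level with DHA before LPS. The intervals of the difference are approximate, from a normal approximation on log counts. They hold counting error only, and the difference has no replicate check.

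DHA over Veh at the same hour had opposite signs at 1 h and 4 h. Without LPS, DHA gave a lower level of all 49 genes, beside 5926 of the 9807 genes. The ratio was past 1.5-fold for 2 of the 49, 4.08% beside 1.53% of all genes, and none were higher by that much, beside 1.73%. The median log2 ratio was -0.31 beside -0.05 for all genes. For 47 of the 49 genes the counting interval lay below 0, a count not taken over all genes. The summed level was 0.805 times that in Veh (0.798 to 0.812). The lowest were Cdc6 at -0.73 (-0.90 to -0.56), from 16.3 CPM to 9.82 CPM, Rpa2, the middle subunit of RPA, at -0.59 (-0.69 to -0.49), and Ccne2 at -0.54 (-0.71 to -0.38). Rpa2 was at 65.7 CPM in Con, 44.3, 37.6 and 17.99 CPM in Veh and 29.4, 25.1 and 23.2 CPM in DHA. Both of its DHA libraries at 0 and 1 h lay below Con and the Veh libraries of those hours. The DHA libraries did so for 44 of the 49 genes, a count not taken over all genes. Least different were Rpa3 at -0.04 (-0.13 to 0.05), Pcna at -0.06 and Pole2, a subunit of polymerase epsilon, at -0.10 (-0.28 to 0.08).

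At 1 h of LPS DHA again gave a lower level of all 49 genes, beside 6012 of the 9807 genes. The ratio was past 1.5-fold for 10 of the 49, 20.4% beside 2.42% of all genes, and none were higher by that much, beside 2.1%. The median log2 ratio was -0.45 beside -0.05. The summed level was 0.728 times that in Veh (0.721 to 0.735). The 6 lowest were Lig1 at -0.87 (-0.97 to -0.78), Rrm2 at -0.80 (-0.88 to -0.73), Gins1 at -0.71 (-0.90 to -0.53), Mcm7 at -0.70 (-0.78 to -0.61), Tk1 at -0.69 (-0.79 to -0.59) and Pola1 at -0.64 (-0.76 to -0.52). Rrm2, the small subunit of ribonucleotide reductase, was at 137 CPM in Con, 104, 103 and 26.2 CPM in Veh and 71.5, 59.1 and 27.3 CPM in DHA. Gins1 was at 18.3 CPM in Con, 16.3, 15.5 and 5.32 CPM in Veh and 11.6, 9.43 and 5.26 CPM in DHA, and Mcm7 at 90.8 CPM in Con, 63.7, 74.7 and 23.7 CPM in Veh and 49.7, 46.1 and 30.7 CPM in DHA. For these 3 genes the DHA value was below the Veh value at 0 and 1 h, and at 4 h the DHA and Veh values of Rrm2 and Gins1 had intervals of the ratio that hold 0.

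At 4 h of LPS, 6417 of the 9807 genes were higher with DHA. Of the 49 genes, 43 were higher and 6 lower. Only Chaf1b was higher by more than 1.5-fold, 2.04% beside 4.97% of all genes, and none was lower by that much, beside 2.77%, so by size the group did not stand above the other genes, but its median log2 ratio was 0.33 beside 0.09 for all genes. The summed level was 1.185 times that in Veh (1.168 to 1.203). Chaf1b was at 38.7 CPM in Con, 36.7, 37.3 and 9.37 CPM in Veh and 32.9, 29.3 and 14.6 CPM in DHA, a log2 ratio of 0.64 (0.43 to 0.84), followed by Dnmt1 at 0.56 (0.43 to 0.70) and Orc1, the large subunit of the origin recognition complex, at 0.52 (0.17 to 0.87), from 3.31 CPM to 4.76 CPM. The lowest were Prim2, the large primase subunit, at -0.37 (-0.74 to -0.02), Pold2 at -0.14 (-0.32 to 0.04) and Rpa3 at -0.12 (-0.26 to 0.03). For 36 genes the counting interval lay above 0 and for Prim2 alone below it. Lower with DHA at 0 and 1 h and higher at 4 h, by interval, were 33 of the 49 genes, and by value 43. These counts by interval and across hours were not taken over all genes. None is read as particular to the 49. With TMM factors, 4 genes changed sign at 4 h, Cdc6, Mcm5, Pola2 and Rrm2, no gene was higher by more than 1.5-fold, and the median was 0.21 beside -0.03. Over all deposited barcodes, with no filter, the sign at 4 h was lost: the median was 0.0005335 beside -0.14 for all genes. Of the 49 genes, 1 was lower and none higher by more than 1.5-fold, beside 5.899% and 4.391% of all genes. At 0 and 1 h the medians were -0.51 and -0.66, beside -0.22 and -0.28 for all genes. CPM over all barcodes count mitochondrial UMIs, and at 4 h 80.0% of DHA and 54.7% of Veh barcodes had at least 20% of them. Over non-mitochondrial UMIs, left-out barcodes at 4 h were at 993 CPM with DHA and 983 CPM with Veh. Kept cells were at 1253 and 1060 CPM on that scale. The filter kept 12.1% of the barcodes of DHA.LPS.4 and 40.6% of those of Veh.LPS.4. Its part and that of mitochondrial UMIs in these results were not tested further.

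**Figure D3:**
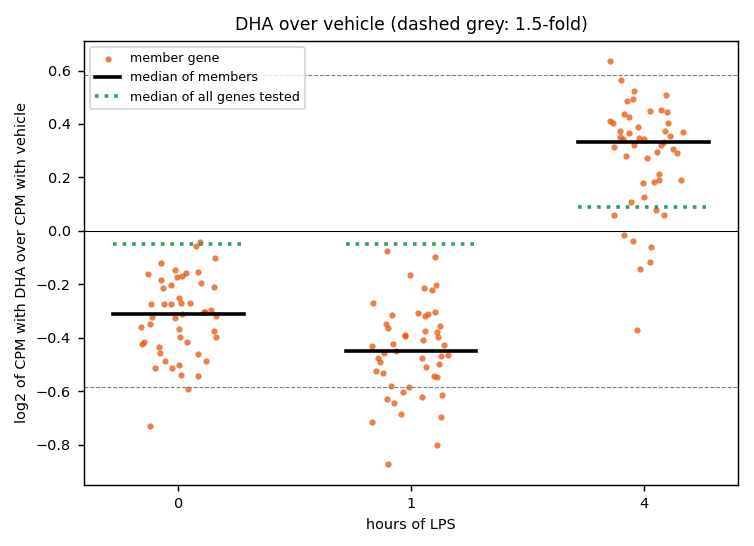
Log2 ratio of CPM with DHA to CPM with Veh for each of the 49 genes (points) at 0, 1 and 4 h of LPS, with the median of the genes (black line), the median of all genes tested (green dotted line) and 1.5-fold (grey dashed lines). All points lie below 0 at 0 and 1 h, and 43 of 49 lie above 0 at 4 h.

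In pooled UMIs, fewer cells in S phase and less of the RNA in each cell cannot be told apart, so the sums of single cells are described as well. Each cell was thinned to 20000 UMIs and the UMIs of the 49 genes were added up. The median Con cell held 66 such UMIs. At 0, 1 and 4 h of LPS it was 42, 43 and 11 UMIs with Veh, and 30, 26 and 14 with DHA. The distributions were broad and ran without a gap between low and high cells, so no class of cells is cut from them, only a range. The variance of these sums was 11.18 times their mean in Con, the least, and 21.85 times in DHA.LPS.1, the most. The intervals of pooled levels and ratios do not hold this spread between cells. At or above 69 UMIs, the 75th percentile of Veh.LPS.0, were 46.6% of the cells of Con (44.8 to 48.4). With Veh the shares at 0, 1 and 4 h were 25.1% (23.4 to 26.8), 27.4% (25.8 to 29.0) and 3.62% (2.55 to 4.98). With DHA they were 18.3% (15.5 to 21.4), 14.8% (12.4 to 17.5) and 4.77% (3.30 to 6.63). Cells within 2 UMIs of this value made up 1.01% to 6.33% of a library. These intervals count cells of a single library each and do not compare conditions.

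The lower part of the distribution also differed between libraries. The 25th percentile was 49 UMIs in Con, 26, 25 and 7 UMIs with Veh and 16, 14 and 8 UMIs with DHA at 0, 1 and 4 h. The 95th percentile was 115 UMIs in Con, 103, 106 and 64 UMIs with Veh and 92, 95 and 67.45 UMIs with DHA. The median cell had a UMI of 31 of the 49 genes in Con, of 24 in Veh.LPS.0 and of 9 in Veh.LPS.4, and no cell of any library was without one.

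**Figure D4:**
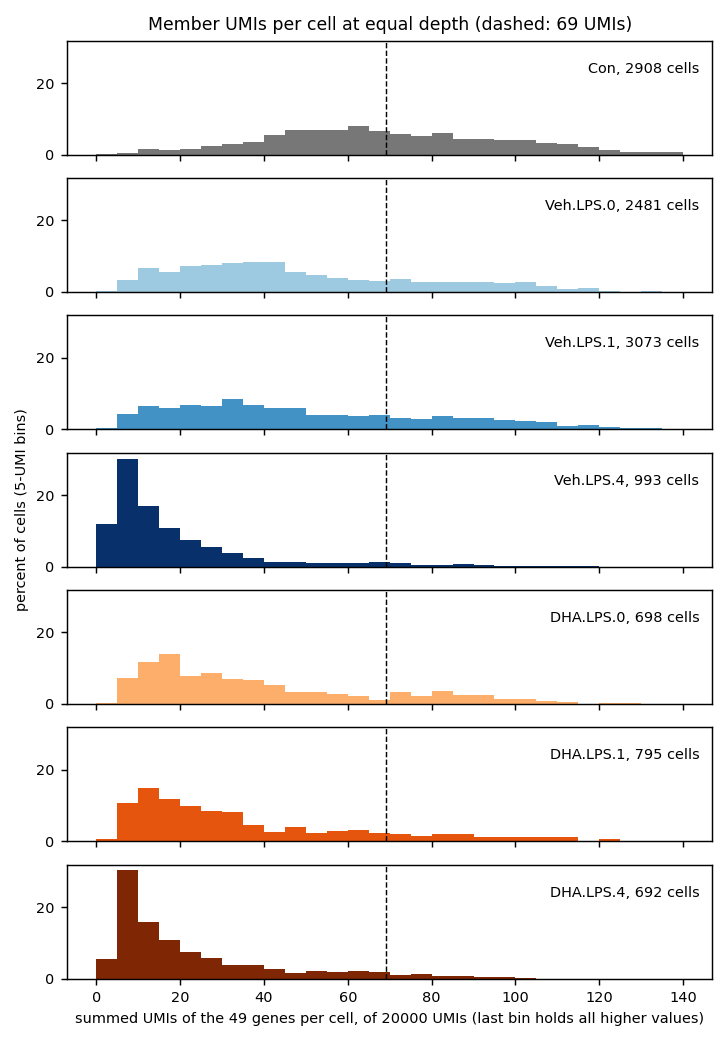
Percent of cells (vertical axes) by the summed UMIs of the 49 genes per cell after thinning to 20000 UMIs (horizontal axis, bins of 5 UMIs), for each of the 7 libraries. The bulk of cells moves from a median of 66 UMIs in Con and 42 in Veh.LPS.0 to 11 in Veh.LPS.4 and 14 in DHA.LPS.4, with 69 UMIs marked by the dashed line.

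Cells were then split by a list of 26 mitosis genes that shares no gene with the 49, such as Mki67, Top2a, Ccnb1 and Cdk1. Cells at or above 118 UMIs of that list at equal depth, the 75th percentile of Veh.LPS.0, are called mitosis-high here. Con had 33.2% of such cells, and at 0, 1 and 4 h Veh had 25.2%, 25.6% and 1.01% and DHA 17.6%, 13.8% and 2.60%. At 4 h these were only 10 and 18 cells, so no values within them are read there. Mitosis-high cells were deeper than the others in Con and at 0 and 1 h. Their median was 46770 UMIs beside 34230 in Veh.LPS.0, and 57050 beside 44680 in DHA.LPS.0. The CPM below are at full depth, and the part of depth in them was not tested. In Veh.LPS.0 the summed level of the 49 genes was 2589 CPM in mitosis-high and 2450 CPM in the other cells, in Con it was 3183 and 3617 CPM, and in DHA.LPS.0 it was 2662 and 1840 CPM. The ratio of DHA to Veh without LPS was thus 1.03 in mitosis-high cells and 0.751 in the others, and at 1 h it was 0.879 and 0.701. By the summed level, the 49 genes were lower in mitosis-high cells than in the rest in Con and higher in the libraries at 0 and 1 h of LPS. By the share of cells with at least 69 UMIs of the 49 genes the order was another one in part, with 22.4% of mitosis-high and 26.0% of the other cells in Veh.LPS.0, 21.9% and 29.3% in Veh.LPS.1, 10% and 15.6% in DHA.LPS.1, but 20.3% and 17.9% in DHA.LPS.0. In Con both measures were lower in mitosis-high cells, with shares of 34.4% and 52.65%.

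The 49 genes did not move together across this split in Veh.LPS.0. In Veh.LPS.0, 4 genes were higher and 6 lower by more than 1.5-fold in mitosis-high cells, beside 5.47% of all genes higher and 3.14% lower. Lowest was Cdc6, at 5.47 CPM in mitosis-high and 20.9 CPM in the other cells, a log2 ratio of -1.93, followed by Ccne1 at -1.36, Ccne2 at -1.35, Mcm6 at -0.82, E2f1 at -0.69 and Chaf1b at -0.63. Highest was Tk1, at 85.8 and 47.5 CPM and a log2 ratio of 0.85, followed by Rfc5 at 0.81, Rrm1 at 0.78 and Tyms at 0.71. These 10 were named after their values in that library were seen. In Con, Cdc6 was at -2.09, Ccne1 at -1.46 and Ccne2 at -2.34, with Tk1 at 0.48, and in Veh.LPS.1 they were at -1.96, -1.14, -1.41 and 0.79. Cdc6 and both cyclin E genes, whose products act before and at the start of S phase, were the 3 lowest in all 3 libraries. Ccne1 and Tk1, at opposite ends here, had the lowest ratios of all at 4 h of LPS, so the order of the genes across the split was not their order under LPS. The counts past 1.5-fold in mitosis-high cells differed between libraries. In Con, 0 genes were higher and 12 lower, in Veh.LPS.1 7 and 6, in DHA.LPS.0 20 and 2, and in DHA.LPS.1 15 and 3. The share of all genes was taken for Veh.LPS.0 only, so the counts of the other libraries are not read as particular to the 49 genes.

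**Figure D5:**
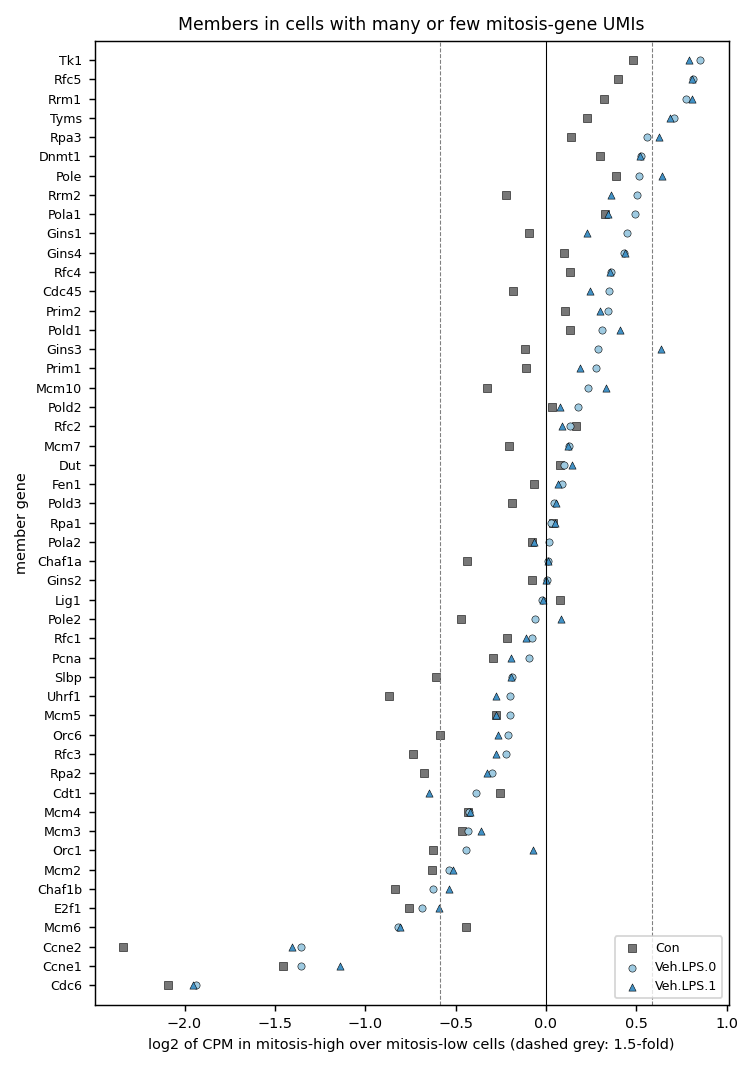
Log2 ratio of CPM in mitosis-high to CPM in the other cells for each of the 49 genes, in Con (grey squares), Veh.LPS.0 (light blue circles) and Veh.LPS.1 (blue triangles), with 1.5-fold as dashed lines. Cdc6, Ccne1 and Ccne2 lie farthest left in each library, at -1.93, -1.36 and -1.35 in Veh.LPS.0. In Veh.LPS.0 Tk1 lies farthest right at 0.85, while in Veh.LPS.1 Rrm1 and Rfc5 at 0.81 lie right of Tk1 at 0.79.

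Across the cells of Veh.LPS.0 (2481 cells of 1 library at equal depth), each gene was also set against the sum of the other 48. Spearman's rho ran from 0.17 for Rpa3, 0.19 for Gins3 and 0.21 for Orc1 to 0.61 for Mcm6, 0.62 for Rrm2 and 0.63 for Mcm3, with a median of 0.443. Rpa3, Gins3 and Orc1 had a mean of 0.77, 0.22 and 0.15 UMIs per cell at this depth. Mcm6, Rrm2 and Mcm3 had 1.51, 1.94 and 2.2. The part of these levels in the rho values was not tested. The rho between the summed replication and the summed mitosis genes was 0.05 over the 2908 cells of Con. With Veh it was 0.40, 0.45 and 0.69 over 2481, 3073 and 993 cells at 0, 1 and 4 h, and with DHA 0.67, 0.63 and 0.71 over 698, 795 and 692 cells. The points share library, depth and the pool of free RNA, and these values are descriptions.

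Cell depth moved with the DHA result. From cells of 20000 to 30000 UMIs through 30000 to 50000 to those above 50000 UMIs, the summed level in DHA was 1.05, 0.575 and 0.983 times that in Veh without LPS, 0.527, 0.6995 and 0.854 times at 1 h and 1.27, 2.35 and 1.13 times at 4 h. The first of these rests on 35 DHA cells and is the only one without LPS or at 1 h above 1, the first at 4 h rests on 52 Veh cells and the last on 28 DHA cells. When each library was instead divided into 3 equal groups by its own UMIs per cell, the ratio of DHA to Veh was 0.747, 0.708 and 0.897 without LPS, 0.599, 0.624 and 0.856 at 1 h and 1.19, 1.28 and 1.16 at 4 h, from the group of lowest to that of highest depth. The direction was the same in these 3 groups, whose depths are not matched between libraries. The ratio of Veh.LPS.4 to Veh.LPS.0 was 0.348, 0.310 and 0.471 in these groups. That of DHA.LPS.4 to DHA.LPS.0 was 0.553, 0.559 and 0.609. By fixed depth it was 0.441 at 20000 to 30000 UMIs, 0.927 at 30000 to 50000 UMIs and 0.517 above 50000 UMIs. The first of these rests on 35 cells of DHA.LPS.0 and the last on 28 cells of DHA.LPS.4. Within 30000 to 50000 UMIs the median log2 ratio was -0.05 beside -0.27 for all genes. Of the 49 genes, 12 were then lower by more than 1.5-fold in place of 31 and 3 higher, beside 33% of all genes lower and 11.5% higher. The part of depth in these results was not tested.

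Lists of related genes, none of them among the 49, were read in the same comparisons. In Veh.LPS.4 over Veh.LPS.0, the counts below stand beside 41.5% of all genes lower and 9.89% higher by more than 1.5-fold. The median log2 ratio of all genes was -0.42. Of 34 further replication factors, 25 were lower and 1 higher by that much, with a median log2 ratio of -1.31. Lowest were Wdhd1, which couples the helicase to polymerase alpha, at -2.80, and Gmnn, the inhibitor of Cdt1, at -2.74. Highest were Pole4, the histone-fold subunit of polymerase epsilon, at 0.78, from 55.7 CPM to 95.9 CPM, and Top1, the topoisomerase that relaxes DNA ahead of the fork, at 0.53. Of 24 further genes of nucleotide supply, 15 were lower and none higher, with a median of -0.75, between Dhodh of pyrimidine synthesis at -1.93 or the nucleoside transporter Slc29a1 at -1.63 and Nme2 at 0.11 or the salvage enzyme Pnp at 0.35. Of 23 checkpoint and fork repair genes, 20 were lower and none higher, with a median of -1.98. Chek2, a checkpoint kinase, was lowest at -3.70, and Rad17 and Hus1, which load and form the checkpoint clamp, were at 0.05 and -0.04.

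Of 29 genes of the RB-E2F, cyclin and CDK list, 27 passed the limit on low levels, Cdkn1c and Cdkn2a not. At 4 h in Veh, 19 were lower and 2 higher by more than 1.5-fold, with a median of -1.55. Of all genes, 41.5% were lower and 9.89% higher there, with a median of -0.42. The pocket protein Rbl2 was at -2.89 and Cdkn2d, an inhibitor of the D-cyclin kinases, at -2.74. The higher genes were Myc, the transcription factor, at 0.262 CPM in Con, 0.577, 4.15 and 11.1 CPM in Veh and 1.03, 4.93 and 9.12 CPM in DHA, a log2 ratio of 4.27, and Cdk6, the partner of the D cyclins, at 106 CPM in Con, 146, 157 and 243 CPM in Veh and 137, 151 and 192 CPM in DHA, a log2 ratio of 0.73. All 26 mitosis genes were lower at 4 h in Veh, with a median of -2.16, and in DHA.LPS.4 over Veh.LPS.4 all 26 were higher and the median was 0.66, with 20 past 1.5-fold. In that comparison 5 of the 34 further replication factors and 1 of the 24 nucleotide genes were higher by more than 1.5-fold. So were 4 of the 27 RB-E2F, cyclin and CDK genes and 6 of the 23 checkpoint genes. Of all genes, 4.97% were higher by that much, and in these lists none was lower by that much. In DHA.LPS.0 over Veh.LPS.0, the median was -0.30 for the further replication factors, -0.16 for the nucleotide genes and -0.34 for the checkpoint genes. It was -0.26 for the RB-E2F, cyclin and CDK genes and -0.43 for the mitosis genes, beside -0.05 for all genes.

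Among all genes that are not one of the 49, those whose log2 CPM over the 7 libraries was most like that of the summed 49 genes were Mybl2, a transcription factor of the cell cycle, Atad5, which unloads PCNA, and Kif20a, a mitotic kinesin, each with Pearson's r of 0.997 over 7 libraries and chosen from 5336 genes with a mean of at least 20 CPM. Each of the 3 is also in a list above. Mybl2 was at 45.07 CPM in Con, and at 27.4 CPM without and 5.31 CPM with 4 h of LPS in Veh.

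The spans of 11 of the 49 genes overlap an expressed gene in the annotation, among them Orc1 with Prpf38a, Mcm7 with Ap4m1, Fen1 with Tmem258, Chaf1a with Ubxn6 and Ccne2 with Ints8, and counts for such genes can hold reads of the partner where the assignment did not part them. The copy Pcna-ps2 had 0.409 to 0.666 CPM. Positions are those of the RefSeq annotation of GRCm38.p6, the assembly also named mm10.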

How the data were processed

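The authors prepared 7 libraries with the 10x Chromium 3′ kit (v3 chemistry), and deposited the counts of UMIs per gene and barcode, without normalization. Per the file headers the counts were made with Cell Ranger 3.1.0, and the submitters' processing notes name the mm10 build. The methods also give the filter on cells used here: over 20000 UMIs, at least 2000 genes and under 20% mitochondrial UMIs. No doublet caller was run.

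UMIs were summed per gene over the kept cells of each library, 22045775 to 125716982 UMIs, and divided by that total to give CPM. Ratios of CPM carry exact binomial (Clopper-Pearson) 95% intervals, and levels exact Poisson intervals. Differences between log2 ratios carry 95% intervals from a normal approximation on log counts. All of these cover counting error only. With 1 library per condition no test across genes was run, and genes were counted by a ratio above 1.5 or below its inverse, among 9807 genes with a mean of at least 2 CPM. Gene symbols, Ensembl IDs and all 31053 rows were used as deposited, and the script for ratios was tested on simulated data. For values per cell, each cell was thinned without replacement to 20000 UMIs. TMM factors came from edgeR 4.0.16 in R 4.3.3, and all else from Python 3.11.15 with numpy 2.4.6, scipy 1.17.1 and pandas 2.3.3. Positions came from the RefSeq annotation of GRCm38.p6.

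The 49 genes and all lists were chosen with earlier results of these data known. Genes were named by rule: in each role the one with the highest mean CPM, the 3 highest and 3 lowest ratios in Veh.LPS.0 over Con, Veh.LPS.4 over Veh.LPS.0 and DHA over Veh at 0 and 4 h, up to 6 genes past 1.5-fold at 1 h, the 2 highest and 2 lowest of each related list at 4 h, and the 3 genes most like the sum. A gene that this rule names in a related list is not reported here. Other genes of the 49 are named where subunits of 1 enzyme are set side by side, and were chosen after their values were seen. Alternatives were TMM and median-of-ratios scaling, other filters on genes and cells, thinning and another limit on the sum per cell.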

Additional observations from a re-analysis of the deposited data

Results flagged for a closer look

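The summed level of the 49 replication genes with DHA over Veh was flagged because its sign was not the same at all hours of LPS. The log2 ratio was -0.31 at 0 h and -0.46 at 1 h, and 0.24 at 4 h. With 1 library per condition this difference was not tested.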

How the results depend on the processing

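No paired analysis was possible because each condition has 1 library, and for the same reason no library could be left out. With TMM factors and with median-of-ratios size factors, in that order, the median log2 ratio of the 49 genes was 0.068 and 0.10 in Veh.LPS.1 over Veh.LPS.0, -1.003 and -0.98 in Veh.LPS.4 over Veh.LPS.0, and -0.50 and -0.46 in DHA.LPS.4 over DHA.LPS.0. The counts past 1.5-fold with either were 1 lower in DHA.LPS.0 over Veh.LPS.0 and 0 higher in DHA.LPS.4 over Veh.LPS.4. With a mean of at least 10 CPM, which drops Gins3, 0 genes were lower after 1 h of LPS in Veh or in DHA. In DHA.LPS.1 over DHA.LPS.0, 2 were lower with over 10000 UMIs per cell, with under 10% mitochondrial UMIs, with all barcodes and with thinned cells. Under 10% mitochondrial UMIs also left 0 higher in DHA.LPS.4 over Veh.LPS.4. With all deposited barcodes, DHA over Veh had medians of -0.51 (15 lower) at 0 h, -0.66 (32 lower) at 1 h and 0.0005335 (0 higher) at 4 h. For all genes these medians were -0.22, -0.28 and -0.14. Of all genes, 6.035% were lower at 0 h, 10.83% lower at 1 h and 4.391% higher at 4 h. CPM over all barcodes count mitochondrial UMIs, whose share was more often at least 20% in DHA barcodes. The other counts of this paragraph are not set beside a share of all genes. None is read as particular to the 49 genes.

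Cells of 30000 to 50000 UMIs alone were an alternative chosen after seeing the data. The replication gene medians were then -2.42 in Veh.LPS.4 over Veh.LPS.0 and 0.27 in DHA.LPS.1 over DHA.LPS.0, beside -0.47 and -0.11 for all genes. In DHA.LPS.0 over Veh.LPS.0 the median was -0.82 beside -0.03, with 38 lower by more than 1.5-fold, beside 5.75% of all genes. In DHA.LPS.4 over Veh.LPS.4 it was 1.38 beside 0.13, with 46 higher, beside 13.99% of all genes. In DHA.LPS.4 over DHA.LPS.0 it was -0.051 beside -0.27, with 12 lower, beside 33.01% of all genes. The summed level was 0.9275 times that without LPS there, but 0.441 times at 20000 to 30000 UMIs and 0.517 times above 50000 UMIs. These last ratios rest on 35 cells of DHA.LPS.0 and 28 cells of DHA.LPS.4. In DHA.LPS.1 over Veh.LPS.1, 17 were lower, beside 6.11% of all genes. In DHA.LPS.4 over DHA.LPS.0, 19 of the replication genes went from a value below 0 to one above 0. Among them were 6 of the 31 that had been lower by more than 1.5-fold: Pola1 at 0.13, Pole at 0.47, Mcm7 at 0.13, Mcm5 at 0.10, Mcm4 at 0.055 and Chaf1a at 0.14. The cause was not tested.

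The share of Con cells at or above the limit on the summed UMIs was 49.3% when cells with over 10000 UMIs were thinned to 10000. With the 90th percentile of Veh.LPS.0 as the limit, Con was at 21.5%, and at 0, 1 and 4 h Veh was at 10.6%, 11.7% and 0.705% and DHA at 4.73%, 5.91% and 0.867%. The other 125 values stayed within the counting interval of the main value or within 1.5 times the count. For a median, the interval used was that of the single gene nearest to it, which is not an interval of the median. In DHA.LPS.4, the library with the fewest cells, 46 of the 49 genes had at least 100 UMIs.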

Other observations

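The barcodes left out by the filter also held transcripts of the 49 genes. Over non-mitochondrial UMIs, their summed level in the left-out barcodes was 3146 CPM in Con, 2235, 1888 and 983 CPM in Veh and 1964, 1632 and 993 CPM in DHA at 0, 1 and 4 h of LPS. On the same scale the kept cells were at 3738 CPM in Con, 2699, 2728 and 1060 CPM in Veh and 2172, 1992 and 1253 CPM in DHA. In each of the 7 libraries the left-out barcodes were lower, at 0.692 to 0.927 times the level of the kept cells. Among left-out barcodes, both libraries at 4 h lay below the other 5, and DHA was below Veh at 0 and 1 h and at nearly the same level at 4 h.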
